A study of Mus musculus with 6 samples.

Results

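The genes described here are 10 members of the Notch pathway: the receptors Notch1, Notch2, Notch3 and Notch4, the ligands Jag1, Jag2 and Dll1, and the target genes Hes1, Hey1 and Hey2. They were taken by gene symbol, with the rule that a gene with several probe sets is represented by the one with the highest mean over all arrays. Each of the 10 had a single probe set assigned to it alone, so all 10 were measured, among 19938 genes in all. The samples were 3 osteosarcoma cell lines and 3 osteoblast cultures of the mouse, each hybridised to 1 Affymetrix array. The lines, named OS_493H, OS_494H and OS_716H, were derived from primary tumours of C57Bl6 mice that carried Osx-Cre and fl/fl alleles of both p53 and Rb. Osx-Cre expresses Cre recombinase from the promoter of Osterix (Sp7), a transcription factor of the osteoblast lineage. Per the labels, the hip was the tumour site for OS_493H (a female of age 188) and OS_494H (a male of age 190), and the tibia for OS_716H (a female of age 226). No unit of age is given. The comparison samples, called cultures 1 to 3, were KUSA4b10 cells, a C57Bl6 bone marrow stromal cell line, that were kept for 21 days after confluence in medium with 50 ug/ml ascorbate. All 3 cultures are a single cell line, and the labels do not say whether they were grown separately, so the p-values may in part measure technical spread and leave out any variation from osteoblast line to osteoblast line. No differentiation period is given for the lines derived from tumours, and differences in growth or differentiation state cannot be told apart from those of tumour origin.

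Notch receptors are transmembrane proteins that are activated by Jagged and Delta-like ligands on a neighbouring cell. Ligand binding allows an ADAM protease and then gamma-secretase to cut the receptor, and the freed intracellular domain enters the nucleus and joins the DNA-binding protein RBPJ and a Mastermind co-activator. Hes and Hey genes, which encode basic helix-loop-helix repressors, are the best known targets. In bone, Notch signalling is known to hold back osteoblast maturation and to vary in effect with the stage of the cell.

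Expression is given as log2 values, so a difference of 1 is a 2-fold difference. The arrays give no call of whether a gene was detected. The median of all values, 7.53, is used here as a mark of low signal. Levels are compared between samples for a given gene and not between genes. The summed levels of marker lists add values of several genes, so genes with bright probe sets weigh most in them. Precision is limited by the small number of arrays, 3 in each group. Differences are osteosarcoma minus osteoblast, and a gene was called at an adjusted p under 0.05 over all 19938 genes (limma, Benjamini-Hochberg).

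Rb1, a floxed gene of the mouse model, was 9.26, 9.70 and 9.87 in OS_493H, OS_494H and OS_716H and 10.66 to 10.68 in the cultures. The array labelled OS_716H, a female, had values of 5.50 for Xist, the RNA of the inactive X chromosome, and 10.11 for the Y-linked gene Eif2s3y, close to the 5.31 and 9.96 of the male line OS_494H and unlike the 12.62 and 4.08 of the female line OS_493H. Its sex label is therefore against its own values, and the difference of each of the 10 Notch genes is also given without it. Cultures 1 and 3 were closer to each other, with 3 genes more than 1 log2 unit apart, than to culture 2, with 150 and 186 genes. Of 7 measured osteoblast markers, Ibsp, Phex and Dmp1 fell in the lines and 4 were not called. Sp7 was 7.64, 8.25 and 9.04 in the lines against 9.13, 10.50 and 8.91 in the cultures.

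Compared with the KUSA4b10 cultures, the osteosarcoma lines had lower expression of 5 of the 10 Notch genes and higher expression of none. The receptors Notch1 and Notch3, the ligand Jag1 and the targets Hes1 and Hey1 fell by 1.65- to 4.93-fold. Notch2, Notch4, Jag2, Dll1 and Hey2 were not called. Among all genes, 11.4% were called lower, 13.2% higher and 24.6% either way. Called falls of at least 2-fold were found for 4 of the 10 members, against 2.81% of all genes. The members were chosen with earlier results of these data known, so such shares are descriptions and not a test of the list. All genes include 7848 that lay below the median of all values on all arrays, as did 3 of the members. Among 11632 genes whose higher group mean was above that median, 2156 were called lower and 2563 higher. No member was higher at an unadjusted limma p under 0.05 either, and the lower members at that level numbered 5. The median difference over the 10 members was -0.41, beside -0.02 over all genes. All 3 lines lay below all 3 cultures for 6 members, against 21% of all genes. A two-sided exact permutation test of each of these 6 differences reached p = 0.1, below which 3 arrays against 3 cannot go. At a stricter adjusted p under 0.01, Notch1, Notch3, Jag1 and Hey1 were called, 4 of 10 members against 12.4% of all genes.

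**Figure D1:**
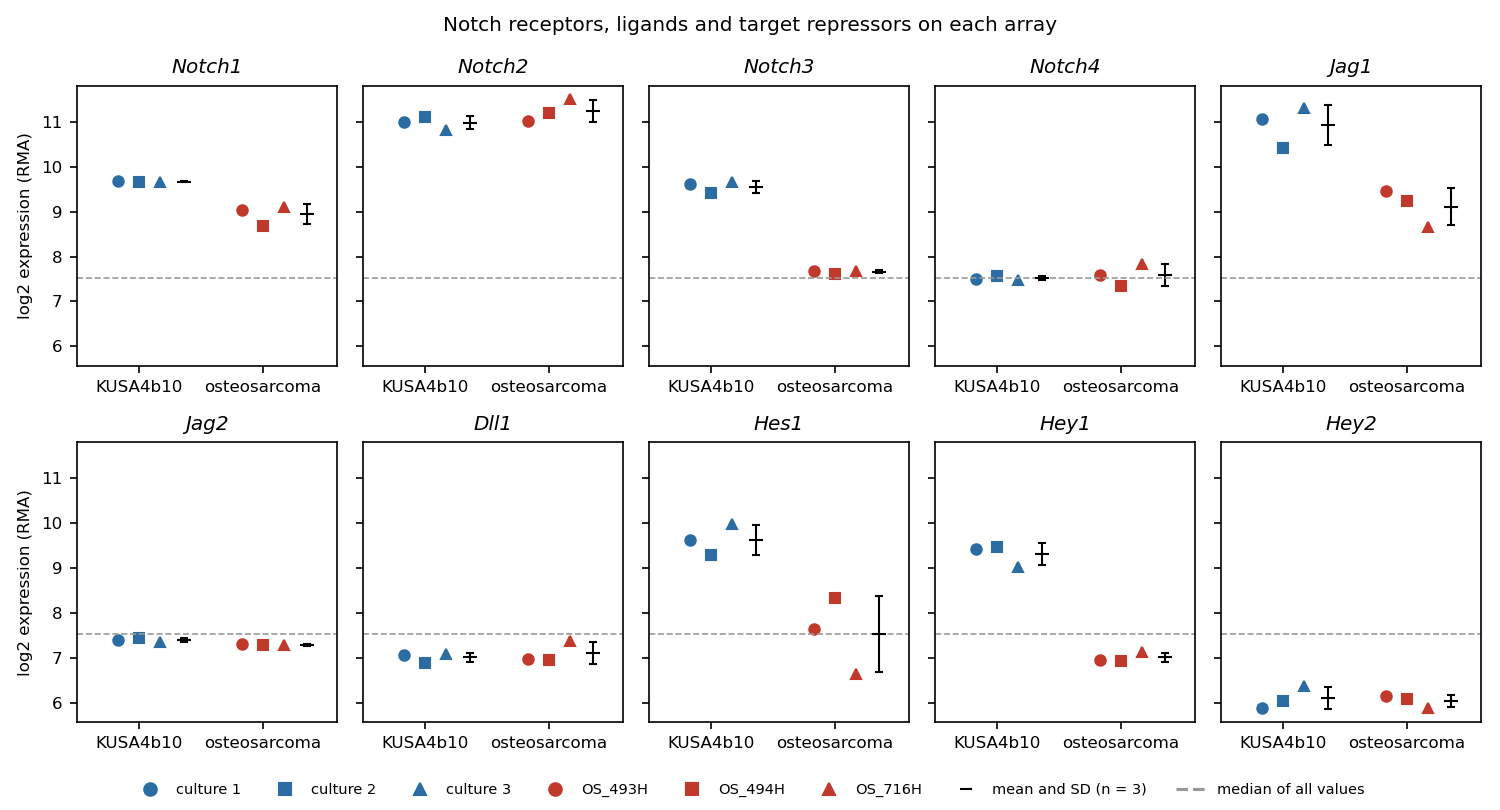
Log2 expression (vertical axis) of the 10 Notch genes on each of the 6 arrays. Blue symbols are the KUSA4b10 cultures, red symbols the osteosarcoma lines, black bars the mean and SD of 3 samples, and the dashed line is the median of all values, 7.53. For Notch1, Notch3, Jag1, Hes1 and Hey1 the red symbols lie below the blue ones, while Jag2, Dll1 and Hey2 lie below the dashed line on all arrays.

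Promoter sequences from RefSeq (GRCm38.p6) matched 8 of the 10 members, Hes1 and Hey1 being named only. The 250 bases before the start site are shown for Notch1, Notch3 and Jag1, the called members with a sequence, and for Hey2, which was not called. Capitals mark the RBPJ core motif TGGGAA or its reverse complement TTCCCA, searched on both strands. All 4 genes lie on the minus strand, and the sequences are written in the direction of transcription.
Notch1, chr2:26503823-26504072: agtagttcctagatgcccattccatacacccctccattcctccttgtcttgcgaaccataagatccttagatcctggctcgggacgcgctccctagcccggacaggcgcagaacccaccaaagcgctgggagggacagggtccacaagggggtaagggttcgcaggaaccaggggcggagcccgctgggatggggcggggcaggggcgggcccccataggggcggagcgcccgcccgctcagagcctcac
Notch3, chr17:32166891-32167140: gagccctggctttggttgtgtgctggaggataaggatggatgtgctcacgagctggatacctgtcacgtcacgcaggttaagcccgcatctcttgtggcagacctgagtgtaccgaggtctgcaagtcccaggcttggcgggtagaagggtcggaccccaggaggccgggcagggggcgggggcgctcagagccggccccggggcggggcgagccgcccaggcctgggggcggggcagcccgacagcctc
Jag1, chr2:137116521-137116770: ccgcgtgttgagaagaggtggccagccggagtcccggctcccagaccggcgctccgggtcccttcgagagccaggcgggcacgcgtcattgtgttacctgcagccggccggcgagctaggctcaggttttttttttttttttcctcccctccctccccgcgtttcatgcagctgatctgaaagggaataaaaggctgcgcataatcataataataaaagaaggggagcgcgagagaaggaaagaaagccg
Hey2, chr10:30842784-30843033: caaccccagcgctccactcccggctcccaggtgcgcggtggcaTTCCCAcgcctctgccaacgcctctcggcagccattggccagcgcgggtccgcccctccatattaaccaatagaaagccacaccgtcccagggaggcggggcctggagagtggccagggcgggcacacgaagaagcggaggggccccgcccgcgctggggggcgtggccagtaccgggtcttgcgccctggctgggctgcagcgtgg
Of the 8 members with a sequence, Hey2 alone held the motif, as TTCCCA beginning 207 bases before the start site. The motif was present in a window of 24.1% of the 27025 genes in the table, and in 21.6% of its 32851 windows of this length. GC content of the windows was 66% for Notch1, 68.8% for Notch3, 57.2% for Jag1 and 71.6% for Hey2, beside a median of 52.4% over all promoters. These matches describe the letters of the window and no binding was measured.

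Among the receptors, Notch3 showed the larger fall. Notch3, a receptor best known from mural cells of blood vessels, had values of 7.68, 7.62 and 7.67 in OS_493H, OS_494H and OS_716H, and of 9.60, 9.40 and 9.66 in cultures 1, 2 and 3. The lines lay within 0.06 of each other, just above the median of all values, and the highest line was 1.72 below the lowest culture. The means were 7.66 ± 0.03 and 9.55 ± 0.13 (SD, n = 3 each), with a difference of -1.90 ± 0.09 on the log2 scale (SE, limma adjusted p = 1.94e-04), or 3.72-fold lower. Without OS_716H the difference was -1.90 (adjusted p = 0.001). In samples of whole cultures, fewer cells that express a gene and less RNA per cell cannot be told apart.

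Notch1, the receptor with the widest known role in cell fate decisions, was 9.03, 8.69 and 9.10 in OS_493H, OS_494H and OS_716H. The cultures had 9.68, 9.67 and 9.65. The cultures were nearly equal, and each line was lower than each of them by at least 0.56. The log2 difference was -0.73 ± 0.12 (SE, adjusted p = 0.00598), a 1.65-fold lower level, with OS_494H lowest. Leaving out OS_494H gave -0.60 (adjusted p = 0.00345) and leaving out OS_716H gave -0.80 (adjusted p = 0.00753).

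Notch2 and Notch4 were not called. Notch2, the receptor mutated in a human disorder of bone loss, was 11.02, 11.20 and 11.51 in the lines against 11.00, 11.11 and 10.82 in the cultures, so the groups overlapped. Its difference of 0.27 had a 95% interval from -0.07 to 0.61 (adjusted p = 0.239), and it was 0.13 without OS_716H. Notch4, known chiefly from endothelial cells, was 7.58, 7.34 and 7.83 in the lines against 7.50, 7.57 and 7.48 in the cultures, on either side of the median of all values. Its difference was 0.07 (95% interval -0.24 to 0.37, adjusted p = 0.761), with the sign turned without OS_716H (-0.05).

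Of the 3 ligands, only Jag1 was called. Jag1, a ligand of the Jagged class, was 9.45, 9.23 and 8.65 in OS_493H, OS_494H and OS_716H. In the cultures it was 11.06, 10.42 and 11.29. The groups were 0.97 apart, and the lowest value of each group came from OS_716H and culture 2. The means were 9.11 ± 0.41 and 10.93 ± 0.45 (SD, n = 3 each), a difference of -1.82 ± 0.28 (SE, adjusted p = 0.00517), or 3.52-fold lower. The difference was -1.59 without OS_716H (adjusted p = 0.0109) and -2.07 without culture 2 (adjusted p = 0.00516).

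Jag2, the other Jagged ligand, and Dll1, a Delta-like ligand, lay below the median of all values on all 6 arrays. Jag2 was 7.31, 7.28 and 7.27 in the lines against 7.38, 7.44 and 7.35 in the cultures. The groups did not overlap, but were only 0.04 apart, and the difference of -0.10 was not called (95% interval -0.26 to 0.06, adjusted p = 0.327), nor was it without OS_716H (-0.10). Dll1 was 6.96, 6.95 and 7.38 in the lines against 7.07, 6.89 and 7.08 in the cultures, with a difference of 0.08 (95% interval -0.24 to 0.41, adjusted p = 0.718), which turned to -0.06 without OS_716H. OS_716H held the highest value of Dll1, and the other lines lay within the range of the cultures.

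Of the target repressors, Hey1 and Hes1 fell and Hey2 was not called. Hey1, which encodes a repressor also induced by BMP signals in osteoblasts, was 6.95, 6.94 and 7.13 in OS_493H, OS_494H and OS_716H, all below the median of all values. The cultures had 9.43, 9.47 and 9.03. The highest line was 1.89 below the lowest culture. The means were 7.01 ± 0.11 and 9.31 ± 0.25 (SD, n = 3 each), a difference of -2.30 ± 0.14 (SE, adjusted p = 3.63e-04), or 4.93-fold lower. Since the lines lay at low signal, where the arrays give no detection call, the size of this fold is uncertain. Without OS_716H the difference was -2.36 (adjusted p = 0.00143).

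Hes1, a repressor that also responds to signals other than Notch, varied most among the lines, with 7.64, 8.32 and 6.63 in OS_493H, OS_494H and OS_716H. The cultures had 9.61, 9.29 and 9.97. The lines spanned 1.69, yet the highest of them was 0.96 below the lowest culture. The means were 7.53 ± 0.85 and 9.62 ± 0.34 (SD, n = 3 each), a difference of -2.09 ± 0.42 (SE, adjusted p = 0.0128), or 4.26-fold lower. The call was lost without culture 1 (-2.10, adjusted p = 0.0527) and without culture 3 (-1.92, adjusted p = 0.0552). Without OS_716H, the line with the lowest level, it was kept at -1.64 (adjusted p = 0.011).

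Hey2, known from heart and arteries, was 6.16, 6.07 and 5.88 in the lines against 5.89, 6.04 and 6.37 in the cultures. All 6 values lay below the median of all values and the groups overlapped. The difference was -0.07 (95% interval -0.41 to 0.28, adjusted p = 0.797), and 0.01 without OS_716H.

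**Figure D2:**
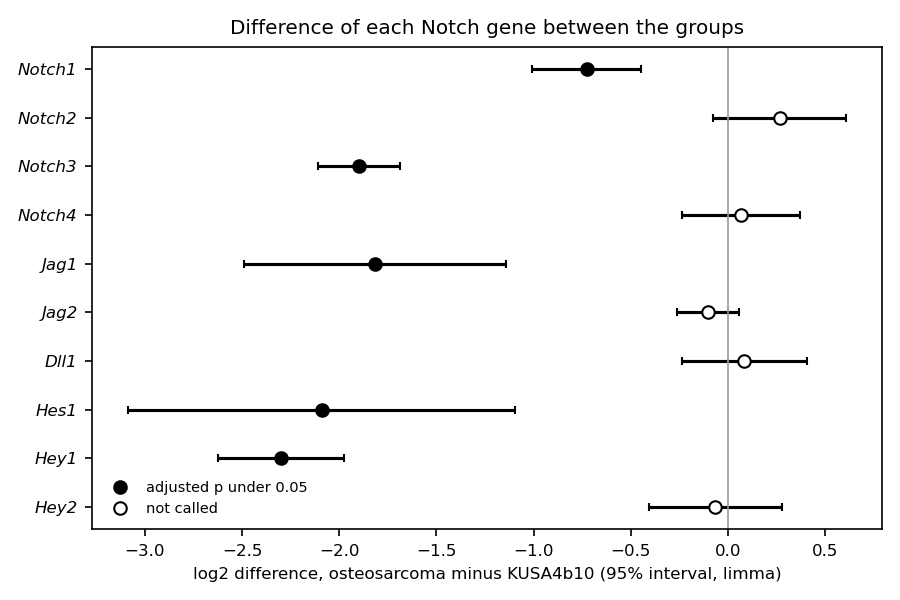
Log2 difference of each Notch gene between the 3 osteosarcoma lines and the 3 KUSA4b10 cultures (horizontal axis), with its 95% interval from limma. Filled points passed an adjusted p under 0.05, from -0.73 for Notch1 to -2.30 for Hey1, and open points, which did not, lie between -0.10 and 0.27.

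The lines did not share an order across the 5 genes that fell. OS_716H was lowest for Jag1 and Hes1 but highest for Notch1 and Hey1. It differed from the culture mean by -2.27 for Jag1 and by -2.99 for Hes1, where OS_494H differed by -1.30. OS_494H was lowest for Notch1, Notch3 and Hey1. The ratio of the SD over the lines to that over the cultures was 0.26 for Notch3, 0.45 for Hey1, 0.92 for Jag1, 2.51 for Hes1 and 18.5 for Notch1, whose cultures were nearly equal. Among the cultures, culture 2 differed from the mean of cultures 1 and 3 by -0.75 for Jag1, -0.50 for Hes1, -0.23 for Notch3 and 0.24 for Hey1. Single arrays allow no test of these differences.

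**Figure D3:**
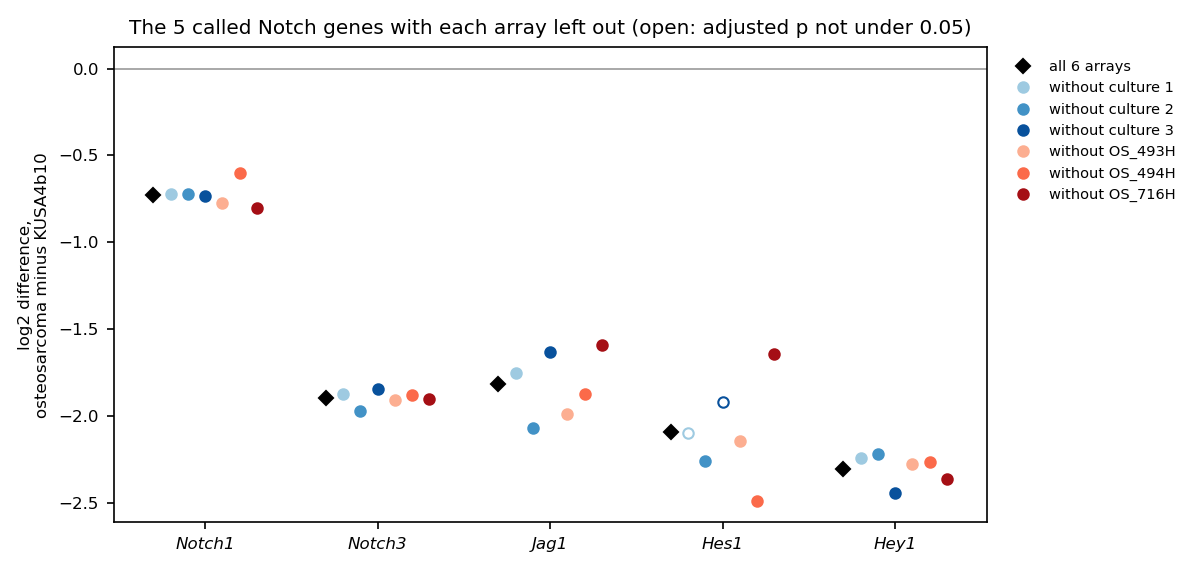
Log2 difference (vertical axis) of the 5 called Notch genes with all 6 arrays (diamonds) and with each array left out (circles). Open circles mark an adjusted p that was not under 0.05, which occurred for Hes1 without culture 1 or culture 3, and all differences lie below 0.

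Other genes of the pathway moved in both directions. Of 63 measured genes, 8 rose, 11 fell and 44 were not called. The share called, 30.2%, stood beside 24.6% of all genes. Of the 19938 genes, 7848 lay below the median of all values on all arrays, against 8 of these 63. A filter kept the 11632 genes whose higher group mean was above that median. Among them 2563 rose and 2156 fell, and of the pathway genes 9 rose and 11 fell. The share called was thus larger among these brighter genes than the 24.6% of all genes. That 24.6%, also set beside each group of genes below, includes the dim genes. A share somewhat above it is therefore no result about the group. The median difference of the 63 pathway genes was 0.01. Of the 19 calls, 9 were kept whichever array was left out, 3 higher and 6 lower. After quantile normalisation 4 rose and 11 fell, and after median centring 10 rose and 9 fell. Without culture 1, and likewise without culture 3, 3 rose and 7 fell, without culture 2 5 rose and 10 fell, and without OS_716H 4 rose and 13 fell.

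The canonical ligands outside the 10 members, Dll3 and Dll4, were below the median of all values on all arrays and not called, and 0 of 2 passed an unadjusted limma p under 0.05. Dll4, a ligand of sprouting endothelium, was 7.08 to 7.30 in the lines against 7.12 to 7.29 in the cultures. Of 7 non-canonical ligands and modulators, 2 rose, with 28.6% called beside 24.6% of all genes. Dlk1, a Delta-like protein without the domain that binds Notch in canonical ligands and known as an inhibitor of fat cell formation, was 12.47, 10.81 and 10.17 in OS_493H, OS_494H and OS_716H and 8.32, 7.98 and 8.09 in the cultures. The lowest line was 1.85 above the highest culture, and the difference was 3.02 ± 0.54 (SE, adjusted p = 0.00879). Mfap5, a microfibril protein reported to bind Notch1 and Jagged proteins, was 12.71, 10.41 and 12.39 in the lines against 7.91, 8.14 and 7.59 in the cultures, a difference of 3.96 ± 0.58 (SE, adjusted p = 0.00415).

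Of 9 measured genes of receptor cleavage, Adam10 and Aph1a rose and Psen2 fell, with 33.3% called beside 24.6% of all genes. Adam10, the protease of the first ligand-dependent cut, differed by 0.41 and Aph1a, a gamma-secretase subunit, by 0.28, and the calls were lost in 4 and in 6 of the 6 fits with an array left out. Psen2, a catalytic subunit of gamma-secretase, was 8.23, 8.02 and 7.85 in the lines against 8.88, 8.65 and 8.74 in the cultures. Its difference was -0.73 ± 0.12 (SE, adjusted p = 0.00583), with the groups 0.43 apart. None of the 5 genes of receptor glycosylation was called (limma), and 1, Lfng, was higher at an unadjusted p under 0.05. Lfng, a Fringe enzyme that changes which ligands a receptor answers to, was 8.72, 8.78 and 8.46 in the lines against 8.14, 8.34 and 7.66 in the cultures (difference 0.61, adjusted p = 0.0584). It was called without culture 2 (0.75, adjusted p = 0.0391) and after median centring (0.67, adjusted p = 0.0402). Lfng was also called with array weights (0.68, adjusted p = 0.0364) and with the filter on dim genes (adjusted p = 0.0456). In the other 12 of 16 refits it was not called.

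Of 10 genes of the nuclear complex and its co-activators, Maml2 rose, Snw1 and Maml1 fell and 7 were not called. The share called was 30%, beside 24.6% of all genes. Rbpj, the DNA-binding partner of all Notch receptors, was 11.79, 12.00 and 12.09 in the lines against 11.61, 11.50 and 11.94 in the cultures, with overlapping groups (difference 0.28, 95% interval -0.05 to 0.61, adjusted p = 0.204). Snw1, which encodes the RBPJ partner SKIP, differed by -0.70 ± 0.13 (SE, adjusted p = 0.0101). Maml1, a Mastermind co-activator, differed by -0.45 (adjusted p = 0.0281), a call lost in 4 of the 6 fits with an array left out, without either of cultures 1 and 3 and without either of OS_493H and OS_494H (adjusted p up to 0.107). The related Maml2 differed by 0.48 (adjusted p = 0.0369), a call lost in 5 of the 6 fits, all but that without OS_494H (adjusted p up to 0.134), and after quantile normalisation (0.0756).

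Of 10 measured nuclear co-repressors, 7 were called, in both directions. The share called was 70%, beside 24.6% of all genes. Hdac1, Ctbp1 and Tle3 rose, and Spen, Cir1, Ctbp2 and Tle4 fell. Hdac1, a histone deacetylase found in many repressor complexes, was 12.28, 12.32 and 11.68 in the lines against 10.54, 10.70 and 10.66 in the cultures. The difference was 1.46 ± 0.18 (SE, adjusted p = 0.00228), and it was called whichever array was left out. Spen, a co-repressor that binds RBPJ directly, differed by -0.66 (adjusted p = 0.012), and Tle4, a Groucho-type co-repressor that Hes proteins recruit, by -0.85 (adjusted p = 0.0165). Of the 7 calls, that of Hdac1 alone was kept in all 6 fits with an array left out. Those of Spen (with either of cultures 1 and 3 left out, up to 0.0554) and Tle4 (with culture 1 or OS_493H left out, up to 0.0603) were lost in 2 fits each, values being adjusted p, and the other 4 in 3 to 5.

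Among 13 ubiquitin ligases and endocytic regulators, 4 fell and none rose (limma), while 1 was higher at an unadjusted p under 0.05. The share called, 30.8%, stood beside 24.6% of all genes. Itch, Dtx2, Dtx3 and Dtx4 fell, and 3 of the 4 are Deltex ligases, which act on the Notch intracellular domain and on receptor traffic. The Deltex genes Dtx1 (-0.12, adjusted p = 0.363) and Dtx3l (-0.29, adjusted p = 0.529) were not called. Dtx4 was 8.35, 8.35 and 9.08 in OS_493H, OS_494H and OS_716H and 10.73, 10.63 and 10.53 in the cultures. The groups were 1.45 apart, and the difference of -2.04 ± 0.20 (SE, adjusted p = 0.00132) was called whichever array was left out. Dtx3 differed by -0.97 ± 0.13 (SE, adjusted p = 0.00287) and Itch by -0.50 ± 0.08 (SE, adjusted p = 0.0048). Mib1 and Mib2, the ligases that act on the ligands, and Numb, an inhibitor of the receptor, were not called.

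None of the other 7 genes of this kind, Hes and Hey family members and Nrarp, was called, and 0 of 7 passed an unadjusted limma p under 0.05. Hes5, a Notch target of neural progenitors, was 8.46 to 8.73 in the lines against 8.59 to 8.63 in the cultures, a difference of 0.01 (95% interval -0.21 to 0.22). Heyl, a target known from mural cells, was 7.10 to 7.23 in the lines against 7.22 to 7.42 in the cultures (difference -0.14, adjusted p = 0.294). Nrarp, a feedback inhibitor that is itself a Notch target, was 6.91 to 7.22 in the lines against 6.82 to 7.17 in the cultures (difference 0.05, 95% interval -0.25 to 0.34). Hes3, the member of this list with the largest difference (-0.15, adjusted p = 0.239), was 6.59 to 6.75 in the lines and 6.75 to 6.88 in the cultures. Heyl, Hes3 and Nrarp lay below the median of all values on all 6 arrays.

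**Figure D4:**
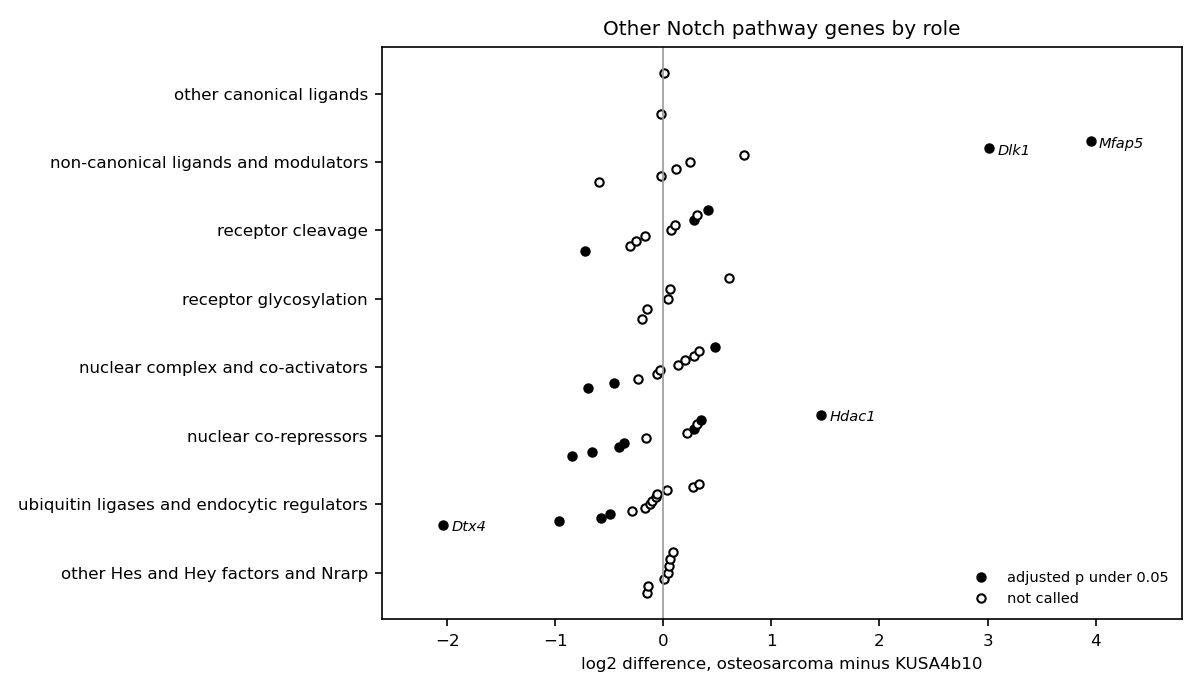
Log2 difference between osteosarcoma lines and KUSA4b10 cultures (horizontal axis) for the 63 other pathway genes, grouped by role (rows), with a point per gene. Filled points passed an adjusted p under 0.05. Dlk1 (3.02), Mfap5 (3.96), Hdac1 (1.46) and Dtx4 (-2.04) are labelled, and the other Hes and Hey genes and Nrarp lie between -0.15 and 0.09.

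Markers of other cell types and states were set beside these genes. Of 9 measured adipocyte markers, 8 fell in the lines, namely Adipoq, Retn, Plin1, Cidec, Fabp4, Pparg, Cebpa and Slc2a4, and Lep was not called. Their summed level, as the log2 of the sum of linear values, was 14.02 to 14.75 in the cultures and 11.29 to 11.97 in the lines. All 7 measured proliferation markers (Mki67, Top2a, Cdk1, Aurkb, Plk1, Bub1 and Birc5) rose, with summed levels of 11.74 to 12.83 in the cultures and 14.18 to 14.62 in the lines. Mki67 was 10.34 in culture 2, against 9.01 and 8.99 in cultures 1 and 3. Culture 2 also stood apart in markers of other lists. It had 10.50 for Sp7 (9.13 and 8.91 in cultures 1 and 3) and 13.03 for Alpl (11.83 and 11.72). Tagln was 10.50 (8.72 and 8.81). Among the 8 adipocyte markers that fell, culture 2 did not stand apart as a rule. For Adipoq, Retn, Plin1, Cidec, Cebpa and Slc2a4, cultures 2 and 3 were closer to each other than to culture 1, which was highest. Adipoq was 12.42, 11.50 and 11.71 in cultures 1, 2 and 3. For Fabp4 (12.75, 11.85 and 12.36) and Pparg, culture 3 lay about midway between culture 1 and the lower culture 2. In culture 2 Jag1, Hes1 and Notch3 had their lowest value among the cultures, Hey1 had its highest and Notch1 lay between the others. The part of fat cell content and growth state in the falls of Notch genes was not tested.

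Of 10 endothelial markers, 9 lay below the median of all values on all arrays and none was called, nor did any pass an unadjusted limma p under 0.05 (0 of 10). Tek was 9.05, 6.30 and 7.52 in the 3 lines and 6.34 to 6.40 in the cultures. Of 9 mural and smooth muscle markers, Tagln, Cnn1 and Cspg4 rose, Mcam fell and 5 were not called. Among those 5, Myh11, Rgs5 and Des lay below the median of all values on all arrays. Summed levels of the list were 13.80 to 14.27 in the cultures and 14.48 to 14.99 in the lines. The sums include Acta2 and Pdgfrb, which were not called, at 12.49 to 13.71 and 12.21 to 12.71 over the 6 arrays. The part of mural cell content in the result for Notch3 was not tested. Of 6 blood cell markers, Cd14 rose (0.53, adjusted p = 0.0163) and 5 were not called. Ptprc, the defining marker of blood cells, was 6.06 to 6.31 on all arrays.

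For the 4 members that spanned at least 2 log2 units, the genes with the most similar values were found by the root mean square distance between values centred on each gene's mean, over the 6 arrays. The nearest to Notch3 were Ttc17 (0.10) and Coro6 (0.11), to Jag1 Gab2 (0.18) and Fnip2 (0.18), to Hes1 Gsta4 (0.32) and Hid1 (0.34), and to Hey1 C130030K03Rik (0.11) and Kcnc2 (0.15). Each of these distances is in log2 units and is dominated by the difference between the groups. Hes1 had the most distant neighbours of the 4. C130030K03Rik, the nearest to Hey1, lay below the median of all values on all 6 arrays.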

How the data were processed

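The authors deposited a table of RMA values on the log2 scale, with a value for each probe set on each array. RMA and mouse build mm9 are named by the submitters' processing notes, and which program was run is not given in the sources. RMA corrects background, equalises the arrays' distributions and averages probes on the log2 scale, which compresses low signals. Of 35556 probe sets, 21789 had 1 gene symbol in the platform annotation. For genes with several, the probe set with the highest mean was used, which left 19938 genes. The groups, from the sample titles, were compared with limma 3.58.1 in R 4.3.3 (lmFit and eBayes, two-sided, Benjamini-Hochberg over all genes, no covariate). The fit was tested on simulated data. Array dates were not used here, so no batch was tested.

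The members and gene lists were chosen with earlier results of these data known. Named pathway genes are those called with at least a 2-fold change and separate groups, otherwise the member of each list with the largest difference, and Rbpj, Maml1, Dll4, Heyl, Hes5 and Nrarp. Adam10, Aph1a, Maml2, Ctbp1, Ctbp2, Tle3, Tle4, Spen, Cir1, Itch, Dtx2, Dtx3, Tek, Lep, Ptprc, Mib1, Mib2, Numb and Dll3 were added after their values were seen. So were Dtx1, Dtx3l, Myh11, Rgs5, Des, Acta2, Pdgfrb and Alpl. The settings varied were quantile normalisation, centring on medians, a filter on dim genes, an intensity trend, robust moderation, array weights, group spreads, other handling of probe sets, an adjusted p under 0.01, cultures 1 and 3 averaged, and each array left out. Promoters are RefSeq sequences of GRCm38.p6.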

Additional observations from a re-analysis of the deposited data

How the results depend on the processing

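Under all 17 alternatives 4 or 5 of the 10 Notch genes were called lower and none higher. Notch1, Notch3, Jag1 and Hey1 kept their calls in each of 16 refits, with adjusted p up to 0.0322, 0.0026, 0.0294 and 0.00404. Hes1 lost its call with cultures 1 and 3 averaged (-2.01, adjusted p = 0.0538), and with an array left out its difference ranged from -2.49 to -1.64. Of the other pathway genes, 4 rose after quantile normalisation and 3 with cultures 1 and 3 averaged. At an adjusted p under 0.01, 3 rose and 5 fell. With array weights the counts were larger, and 12 rose and 13 fell. With an array left out 3 to 7 rose and 7 to 13 fell. Over all genes 2622 rose and 2274 fell, against 1606 and 1316 with cultures 1 and 3 averaged, 1394 and 1072 at an adjusted p under 0.01, and 1533 to 2796 and 1211 to 2314 with an array left out. With array weights 3322 of all genes rose and 2877 fell. A stricter threshold lowers counts by construction, and the cause of the other changes was not tested. Among the 6 fits with an array left out, the counts over all genes were lowest without culture 1 or culture 3. More genes rose than with all arrays without OS_494H or OS_716H (2733 and 2796). Quantile normalisation and median centring gave median differences over all genes of -0.02 and 0.04. The balance of calls over all genes changed with them. After quantile normalisation 2419 rose and 2682 fell, and after median centring 3129 rose and 1800 fell. No paired analysis was possible because the labels number only the cultures. Low signals, as for Jag2, Dll1 and Hey2 on all arrays, Hey1 in the lines and Hes1 in OS_716H, limit what a difference can show, since the arrays give no detection call.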
